A study of Mus musculus with 4 samples.

Results

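The ribosome of the cytosol is built from ribosomal RNA and a set of small, mostly basic proteins, and the genes of those proteins are described here in cultured cells of mouse erectile tissue kept in normal or high glucose. Members were chosen by name, not by measured values. A symbol had to be Rpl or Rps followed by a number, with an optional letter a, x, l or y and an optional further digit, or be Rpsa, Rplp0, Rplp1 or Rplp2. The S6 kinases and symbols marked as pseudogenes were left out. The rule found 84 of the 23238 gene symbols in the count tables, 33 for the small subunit and 51 for the large subunit, and no member's symbol stood on more than 1 row. GENCODE vM21, on the mouse build GRCm38 (mm10), held all 84 members on 19 chromosomes, 4 of them on the X chromosome. It listed 83 as protein-coding and Rps4l as a transcribed processed pseudogene.

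Mouse cavernous endothelial cells, grown from corpus cavernosum tissue in a serum-containing medium with heparin, received glucose for 72 hours. Each glucose level has 2 libraries, made from total RNA with a SMARTer mRNA kit. NG1 and NG2 are replicates 1 and 2 of normal glucose, and HG2 and HG4 are replicates 2 and 4 of high glucose. The labels used here state no genotype, strain or age of the mice, no glucose concentrations and no osmotic control. Whether replicates are separate cultures or separate mice is not stated either, so every p-value here reflects no more than library-to-library spread, possibly technical.

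Ribosomal proteins are made in near-equal numbers, because each ribosome holds about a single copy of most of them and unassembled copies are degraded. Their mRNAs are among the most abundant in growing cells. Most begin with a C followed by a run of pyrimidines, the terminal oligopyrimidine (TOP) motif. Through it, mTOR and Larp1 set how much of the mRNA is translated. A few members have paralogs with a narrower expression, such as Rpl3l in striated muscle and Rpl10l and Rpl39l in testis.

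Library totals ran from 46571770 counts (NG2) to 74971589. Levels are given as CPM, counts scaled to library size after TMM, a correction for differences in composition between libraries. The cells' markers did not match the label closely. The 10 endothelial markers examined summed to 36.8 to 60.03 CPM, most of it Esam at 25.6 to 46.1 CPM, with Pecam1 at 2.32 to 3.58 CPM. The 8 fibroblast markers summed to 9406 to 11281 CPM. All markers of both lists had counts, and smooth muscle and pericyte markers summed to 475 to 663 CPM. In bulk RNA, fewer cells of a type and less RNA per cell cannot be told apart.

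Together the members held 3.09% of all counts in NG1 (95% Wilson interval 3.08% to 3.09%), 2.22% in NG2 (2.21% to 2.22%), 2.95% in HG2 and 2.80% in HG4. The intervals cover counting error only. NG2 was the low library, and the other normal glucose library was the highest of the 4, so the groups overlapped. The share was 2.65% ± 0.617 in normal glucose and 2.88% ± 0.104 in high glucose (SD, n = 2 each). The difference of 0.224 percentage points did not exceed the spread between replicates (two-sided exact permutation test, p = 1, in a design of 2 against 2 that cannot reach 0.05). Without NG2 the difference was -0.21 percentage points. The library with the low share also had the fewest counts, the lowest share of the ribosomal RNA precursor row Rn45s (1.60% against 1.79% to 2.84%), and the highest sums of endothelial markers (60.03 CPM against 36.8 to 44.9) and of smooth muscle and pericyte markers (663 CPM against 475 to 480). The sum of fibroblast markers was also highest in NG2 (11281 CPM against 9406 to 11238). That of macrophage and leukocyte markers was not (69.3 CPM against 65.7 to 74.2). Most of the endothelial sum was Esam, with 46.1 CPM in NG2 against 25.6 to 33.3 CPM elsewhere. Pecam1 had 3.44 CPM in NG2 and 3.58 CPM in NG1, and 0 of the 8 tested endothelial markers were lowest in NG2. The part of these differences between libraries in the result was not tested.

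**Figure D1:**
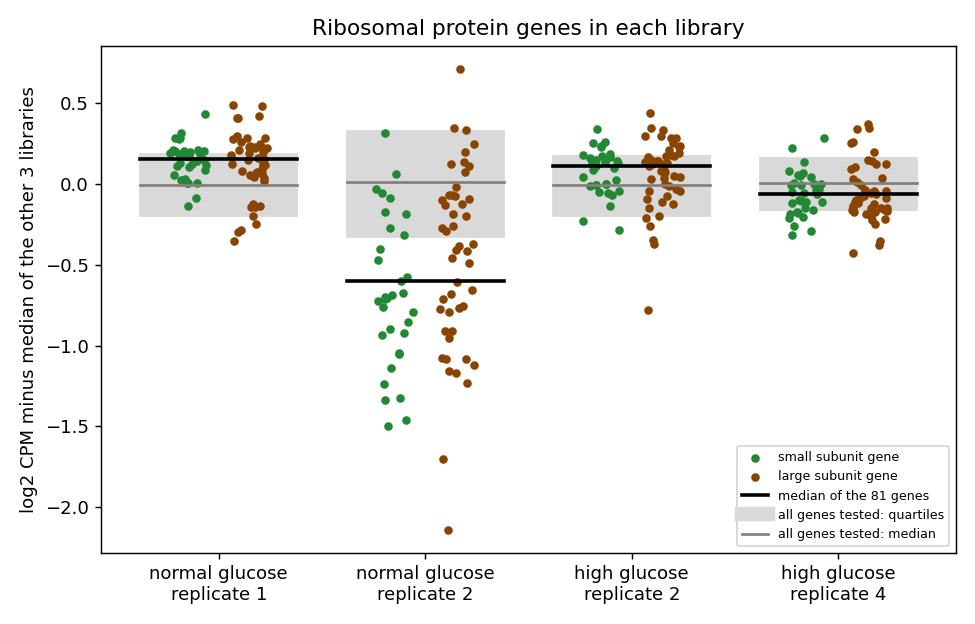
Log2 CPM of each of the 81 tested members minus its median in the other 3 libraries, by library, with small and large subunit genes as separate columns of points and the median of the members as a black line. Grey boxes and lines give the quartiles and median of all genes tested, and NG2 is the library whose members lie low, with a median of -0.60.

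Per kilobase of the longest annotated transcript, the tested members ran from 1.14 to 1695 CPM. Rplp0, the scaffold of the stalk that recruits elongation factors, had the highest level at 1695 CPM per kilobase. Rpl23a, near the exit of the peptide tunnel, followed at 895 CPM per kilobase. Rpl10, a late-joining protein at the subunit interface, stood at 867 CPM per kilobase, Rpl38 at 833 and Rpl7a at 780. The lowest tested members on the same scale were Rpl22l1 at 1.14, Rpl35a at 9.49 and Rpl7l1 at 17.0 CPM per kilobase. The median over the 81 tested members was 213 CPM per kilobase. These levels are uncertain, because how the authors counted reads with several matches is unknown here, and ribosomal protein genes have many processed copies. Of the 32-base stretches of a member's longest coding transcript, a median of 52.3% occurred in transcripts of other annotated genes, and 43 of 83 members shared more than 50%. The share ran from 0% (Rpl3l) to 98.9% (Rpl35), and was 52.8% for Rplp0, 89.6% for Rpl23a and 85.7% for Rpl10. Choice of transcript mattered as well: Rpl35a stood at 52.3 CPM per kilobase when its longest coding transcript set the length.

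**Figure D2:**
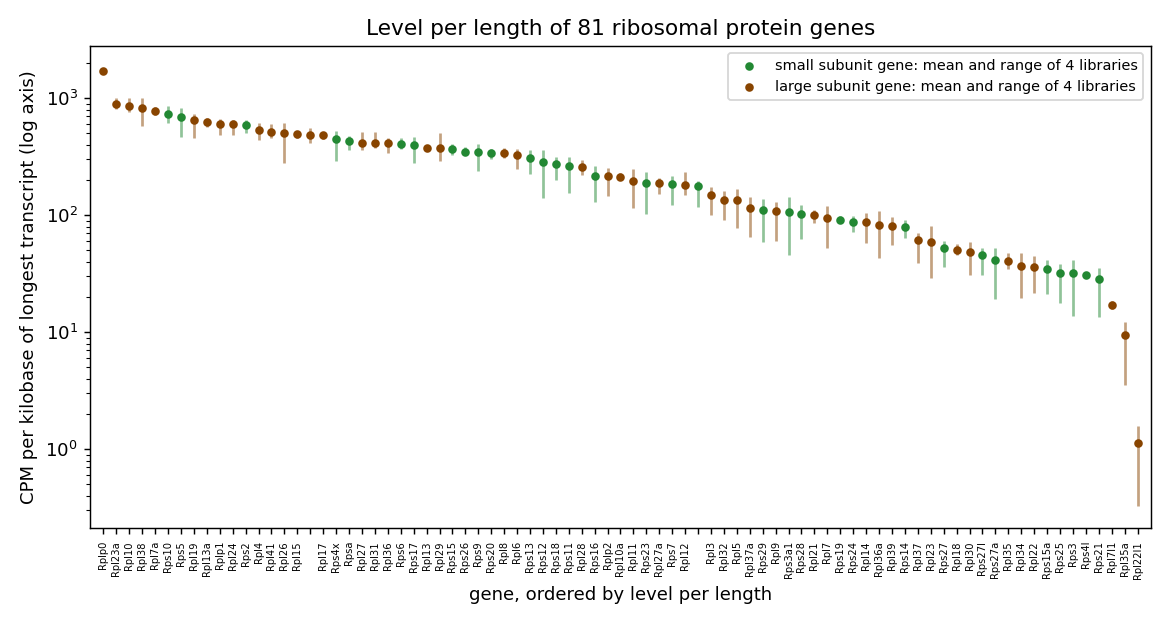
CPM per kilobase of the longest annotated transcript for the 81 tested members, in order of level on a log axis, with points for the mean and bars for the range over the 4 libraries. Rplp0 stands first at 1695 CPM per kilobase and Rpl22l1 last at 1.14, and 2 genes carry no label.

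The main comparison was high against normal glucose. No ribosomal protein gene passed the test: 0 of 81 members had an adjusted p under 0.05 by edgeR's quasi-likelihood test, where 0.0123% of the 16270 genes tested were called. At an unadjusted p under 0.05 there were 0 of 81 members against 5.45% of all genes. DESeq2 also called 0 members (0.455% of all genes), edgeR's exact test 0 (0.688%) and limma-voom 0 (0.0123%). The smallest adjusted p of a member was 0.991, and the smallest unadjusted p was 0.132, for Rps29 (edgeR's quasi-likelihood test). Fitted log2 fold changes lay between -0.25 and 0.57, with a median of 0.19 over the 81 members (65 above 0 and 16 below), against -0.00 over all genes (8011 above and 8259 below). The direction of that median rested on 1 library. It was -0.10 without NG2, with 20 members above 0 and 62 below of 82 tested, and 0.53 without NG1.

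When NG1 was left out, NG2 stood alone for its group and was assumed to vary like the high glucose libraries. Then 43 members were called higher in high glucose (7.56% of all genes) and 1, Rpl29, lower (8.67%). The members' median log2 fold change was -0.10 without NG2, 0.13 without HG2 and 0.20 without HG4. Each of these fits also left 1 library in a group, so counts of genes called are not set beside each other. Among the 81 tested members, the groups did not overlap for 1 higher in high glucose, Rpl13 (16.3% of all genes), and 1 lower, Rpl17 (16.2%). Rpl13 had 701 and 712 CPM in normal glucose and 775 and 790 CPM in high glucose, a log2 difference of 0.15 ± 0.17 (SE). Rpl17 had 683 and 663 CPM against 629 and 592 CPM, a log2 difference of -0.14 ± 0.17.

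**Figure D3:**
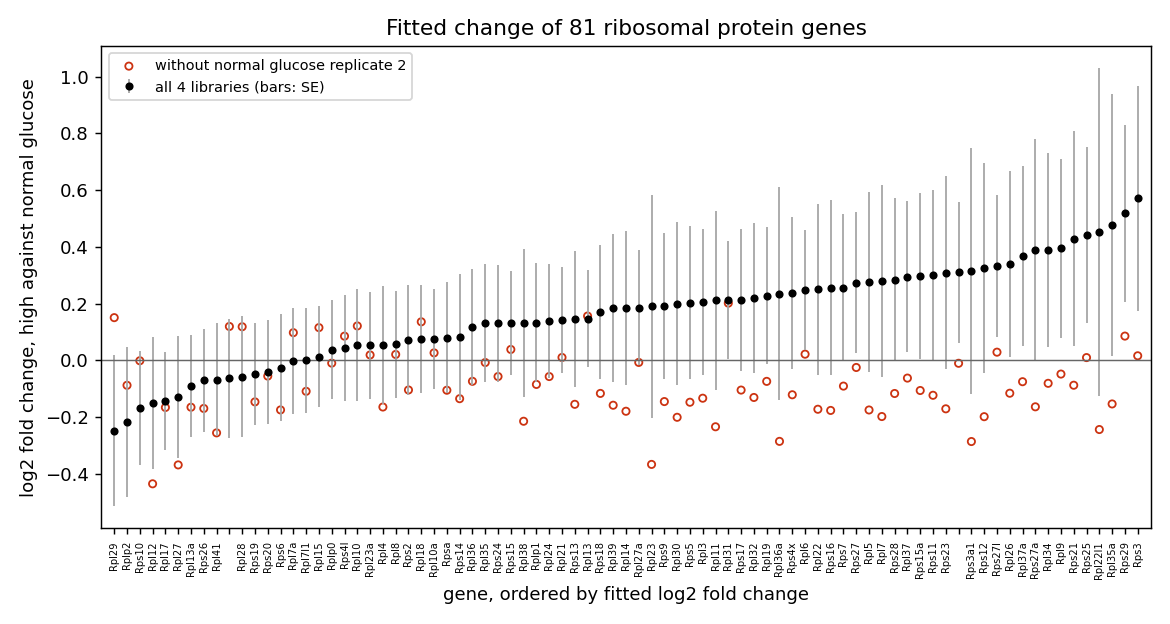
Log2 fold change of each tested member, high against normal glucose, in order of size, as filled points with bars of 1 standard error. Open points give the fit without NG2, where 61 of the 81 members shown lie below 0, and 2 genes carry no label.

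Differences between the libraries did not follow the groups. NG2 had the lowest level of the 4 libraries for 62 of 81 members (76.5%, against 35.4% of all genes tested), and NG1 had the highest for 45 (55.6%, against 23.5%). On the log2 scale, NG2 lay a median of -0.60 from the median of the other 3 libraries (quartiles -0.91 and -0.12), with 0.01 over all genes. The small subunit had a median of -0.71 and the large subunit -0.40. Among the members, 17 of 81 were below 50% of the other libraries' median in NG2, against 4.97% of all genes. They were Rps3, Rps3a1, Rps12, Rps21, Rps23, Rps25, Rps27a and Rps29 of the small subunit and Rpl7, Rpl9, Rpl22l1, Rpl23, Rpl26, Rpl34, Rpl35a, Rpl36a and Rpl37a of the large subunit. In contrast, 11 members lay above that median there, among them Rpl10, Rpl15, Rpl17, Rpl18, Rpl28, Rpl29, Rpl7a, Rplp2, Rps10 and Rps4l. The highest library exceeded the lowest by a median of 1.65-fold over members and 1.46-fold over all genes. Without NG2 these were 1.17-fold and 1.24-fold. Members with a range over 2-fold went from 22 of 81 to 0, and all genes from 2985 of 16270 to 1405. Over the 8695 genes of at least 10 CPM, the median range was 1.35-fold, and 1.18-fold without NG2. Those with a range over 2-fold went from 465 to 66.

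Rps3, at the entry of the mRNA channel and also a DNA repair factor (chr7:99477896-99483738, minus strand), had 120 and 43.5 CPM in normal glucose and 132 and 111 CPM in high glucose. A single library was low, at 36.2% of the median of the others, and only 8.36% of the stretches of its coding transcript were shared with other genes. Its log2 fold change of 0.57 ± 0.40 (SE) was the largest of the members, and it did not pass edgeR's quasi-likelihood test (unadjusted p = 0.185). Without NG2 the log2 fold change was 0.02. Rps3a1 had 141 and 45.1 CPM in normal glucose against 105 and 127 CPM in high glucose. Rps29, a small zinc-binding protein, had 56.3 and 27.1 CPM against 63.6 and 56.1 CPM. Its log2 fold change was 0.52 ± 0.31, with 0.086 without NG2 and 1.14 without NG1. Rps25, which many viral internal ribosome entry sites need, had 46.8 and 22.6 CPM against 49.3 and 45.1 CPM. For Rps25 the log2 fold change was 0.44 ± 0.31, with 0.010 without NG2 and 1.06 without NG1. The same single library was low in each of these genes, and the high glucose libraries lay near NG1. Rps27a, which is made as a fusion with ubiquitin, had 48.9 and 17.8 CPM against 43.0 and 44.5 CPM.

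Other small subunit proteins were more even. Rps6, the target of the S6 kinases, had 511 and 412 CPM in normal glucose and 442 and 464 CPM in high glucose. Rps19, the gene most often mutated in Diamond-Blackfan anaemia, had 264 and 230 CPM against 239 and 239 CPM. Rpsa, also known as the laminin receptor precursor, had 926 and 705 CPM against 876 and 848 CPM. In all 3 genes a high glucose library lay between the normal glucose libraries. Rps4x, the X-linked form of Rps4, had 509 and 286 CPM against 486 and 452 CPM, and Rps4l 27.7 and 29.3 CPM against 30.7 and 28.1 CPM. Rps4l varied least of all tested members, with 1.11-fold between its highest and lowest library. Rps10, which Znf598 marks with ubiquitin on stalled ribosomes, went the other way, with 608 and 757 CPM in normal glucose and 668 and 547 CPM in high glucose. The log2 fold change of Rps10 was -0.17 ± 0.20, and -0.0011 without NG2.

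Among large subunit proteins, Rpl35a, another Diamond-Blackfan anaemia gene (chr16:33056453-33060189, plus strand), had 35.1 and 10.2 CPM in normal glucose against 30.0 and 33.2 CPM in high glucose. NG2 held 30.7% of the median of the others. Its log2 fold change of 0.48 ± 0.46 became -0.15 without that library. Rpl5 and Rpl11, which can bind Mdm2 when ribosome assembly is disturbed, were low in the same library. Rpl5 had 342 and 159 CPM against 308 and 299 CPM, and Rpl11 had 227 and 106 CPM against 186 and 200 CPM. Rpl38, needed for skeletal patterning in the mouse, had 462 and 265 CPM against 403 and 394 CPM. Rpl3, at the peptidyl transferase centre, had 326 and 190 CPM against 296 and 299 CPM.

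Rpl29, a heparin-binding protein on chromosome 9, showed the reverse order, with 260 and 427 CPM in normal glucose and 332 and 247 CPM in high glucose. Its log2 fold change of -0.25 ± 0.27 was the lowest of the members, and it was 0.15 without NG2. Rpl12, at the base of the stalk, had 667 and 429 CPM against 513 and 475 CPM (-0.15 ± 0.23), with NG1 high, and its log2 fold change was 0.20 without NG1. Rpl13a, often used as a reference gene, had 707 and 636 CPM against 669 and 594 CPM. Rpl41, the shortest of the proteins, had 420 and 319 CPM against 362 and 342 CPM. Rpl7a had 758 and 870 CPM against 880 and 746 CPM, Rpl10 had 754 and 829 CPM against 928 and 714 CPM, and Rpl23a had 528 and 505 CPM against 595 and 477 CPM. The groups overlapped in all of these.

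The 3 stalk proteins did not share a pattern. Rplp0 (chr5:115559467-115563727, plus strand) had 2345 and 2198 CPM in normal glucose and 2470 and 2195 CPM in high glucose, a log2 difference of 0.04 ± 0.17. Rplp1 had 333 and 240 CPM against 330 and 298 CPM. Its partner Rplp2 had 203 and 242 CPM against 141 and 242 CPM, and here HG2 was the low library (-0.22 ± 0.26, and 0.14 without it).

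The position of NG2 moved with base composition over all genes. The Spearman correlation between the G and C percent of the longest coding transcript and a gene's log2 distance from the other 3 libraries was 0.46 over 14554 genes, and 0.28 over 80 members. Both are descriptions across genes of the same libraries, and genes are not independent. In the class of 45 to 50% G and C, the median distance was -0.12 over all genes and -0.74 over 28 members. In the class of 55 to 60% it was 0.30 over all genes and -0.46 over 15 members, and above 60% it was 0.55 over all genes and 0.06 over 4 members. Members were therefore below all genes in each of these classes. Genes with transcripts under 1000 bases had a median of -0.18 over 952 genes and -0.68 over 35 members. From 1000 to 2000 bases it was -0.01 over 2708 genes and -0.39 over 32 members. From 2000 to 4000 bases it was 0.02 over 6332 genes and -0.66 over 12 members. Within the members, the distance had a rho of 0.57 with the mean level (n = 81), against 0.09 over all 16270 genes. That mean includes NG2 itself, so the level and the distance are not independent. The share of coding-transcript stretches found elsewhere had a rho of -0.01 with the distance over the members. The part of composition in the low library was not tested.

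**Figure D4:**
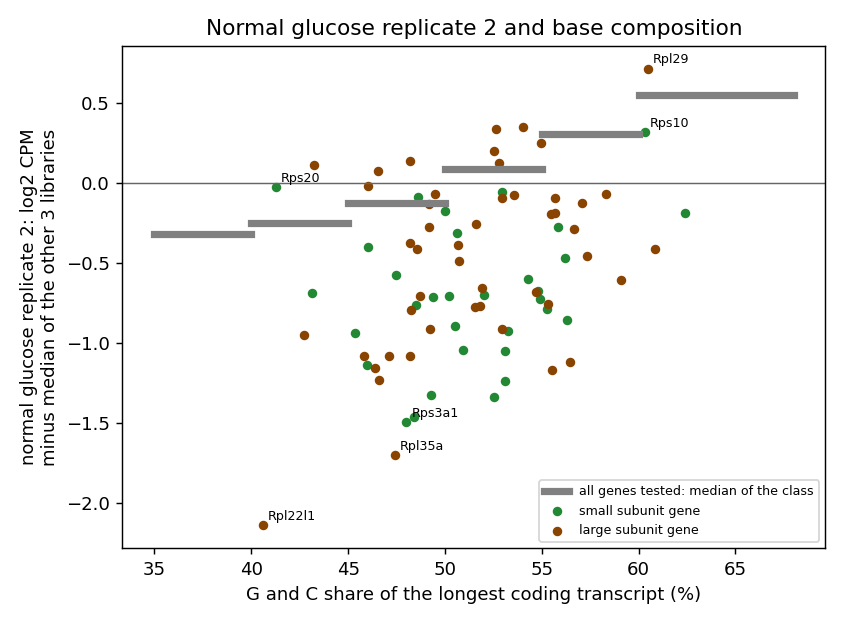
Log2 CPM in NG2 minus the median of the other 3 libraries for each tested member with a coding transcript, against the G and C percent of that transcript, with a grey bar for the median of all genes in each class. The outermost bars are cut to the range drawn, and members lie mostly below the bars, as in the class of 45 to 50% (-0.74 against -0.12).

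Paralogs were compared with their partners within each library, where scaling plays no part. Rps27 (chr3:90212522-90213651, minus strand) and Rps27l (chr9:66946086-66949516, plus strand), a p53-inducible form, have coding regions of 252 bases each that differ at 60 positions (76.2% identity). Their longest identical run is 11 bases and no 32-base stretch is shared. Rpl39 (chrX:37082520-37085402, minus strand) and Rpl39l (chr16:10170226-10174911, plus strand) differ at 23 of 153 bases, with an identical run of 38 bases and 7 shared 32-base stretches. The sequences show how far a read can separate the members of each pair. They are from GENCODE vM21 without the stop codon, 5′ to 3′, and capitals mark the bases that differ within a pair.
Rps27: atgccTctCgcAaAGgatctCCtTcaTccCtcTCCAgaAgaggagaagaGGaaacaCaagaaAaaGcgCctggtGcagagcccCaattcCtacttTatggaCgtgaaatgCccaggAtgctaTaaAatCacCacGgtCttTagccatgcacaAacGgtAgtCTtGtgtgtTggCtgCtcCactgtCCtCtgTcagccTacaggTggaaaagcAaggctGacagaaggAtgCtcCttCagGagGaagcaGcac
Rps27l: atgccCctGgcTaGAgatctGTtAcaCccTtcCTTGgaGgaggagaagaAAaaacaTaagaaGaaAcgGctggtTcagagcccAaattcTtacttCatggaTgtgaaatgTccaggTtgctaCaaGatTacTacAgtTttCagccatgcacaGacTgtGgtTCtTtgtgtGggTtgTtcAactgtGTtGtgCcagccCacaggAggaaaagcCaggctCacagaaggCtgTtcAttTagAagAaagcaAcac
Rpl39: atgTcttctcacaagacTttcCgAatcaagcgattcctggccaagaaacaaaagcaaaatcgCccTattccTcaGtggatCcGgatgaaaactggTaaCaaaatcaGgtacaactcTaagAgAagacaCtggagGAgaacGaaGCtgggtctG
Rpl39l: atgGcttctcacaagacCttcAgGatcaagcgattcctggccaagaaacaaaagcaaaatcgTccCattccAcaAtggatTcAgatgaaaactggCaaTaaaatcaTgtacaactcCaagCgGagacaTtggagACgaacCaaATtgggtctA

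Rps27l lay close to its partner, with 28.6 and 17.8 CPM in normal glucose and 28.4 and 30.0 CPM in high glucose. Rps27 had 38.9 and 24.3 CPM against 40.5 and 36.0 CPM. Per kilobase of the longest transcript, Rps27l stood at 45.5 CPM and Rps27 at 52.0, against the members' median of 213. Other genes shared 19.9% of the coding-transcript stretches of Rps27l and 66.3% of those of Rps27. How reads with several matches were counted is unknown, so the pair's shares are uncertain. Rps27l held 42.4% and 42.2% of the pair's counts in normal glucose and 41.2% and 45.4% in high glucose, so the pair moved together in the low library. The log2 ratio differed by 0.06 between groups (-0.45 ± 0.01 in normal glucose, -0.39 ± 0.18 in high glucose, SD, n = 2 each, exact permutation p = 1). Rpl22l1, the paralog of the RNA-binding protein Rpl22, had 3.0 and 0.62 CPM in normal glucose and 2.23 and 2.84 CPM in high glucose. It held 3.19% and 1.36% of the pair's counts in normal glucose (95% Wilson intervals 2.79% to 3.64% and 0.939% to 1.98%), and 2.80% and 3.25% in high glucose. Rpl22 itself had 91.0 and 44.8 CPM against 77.4 and 84.4 CPM. Rpl22l1 was thus low in NG2 beyond its partner, and it had the widest range of all tested members, 4.84-fold. The log2 ratio was higher by 0.54 in high glucose (exact permutation p = 0.667, n = 2 each), and lower by 0.08 without that library.

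Rpl7l1, a nucleolar relative of Rpl7, was even across libraries, with 47.8 and 41.0 CPM in normal glucose and 43.9 and 44.9 CPM in high glucose. Rpl7 had 190 and 83.2 CPM against 176 and 156 CPM. The share of Rpl7l1 in the pair was 20.1% and 33.0% in normal glucose and 20.0% and 22.4% in high glucose, so NG2 was the high library, and the difference in log2 ratio was -0.39 (exact permutation p = 0.667, n = 2 each). The exact permutation p-values of the 3 pairs were 1 after Benjamini-Hochberg adjustment, and 2 libraries against 2 cannot reach 0.05.

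The tissue-restricted paralogs were near the limit of detection, taken as 3 counts in a library, and were not tested. Rpl10l had 0 and 0 counts in normal glucose and 1 and 1 in high glucose. Rpl3l had 11 and 4 counts against 2 and 3, at 0.155 and 0.0918 CPM against 0.0314 and 0.0387 CPM, beside an Rpl3 of 190 to 326 CPM. Rpl39l had 8 and 6 counts against 9 and 7. Its partner Rpl39 had 59.0 and 34.0 CPM against 55.7 and 50.2 CPM.

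**Figure D5:**
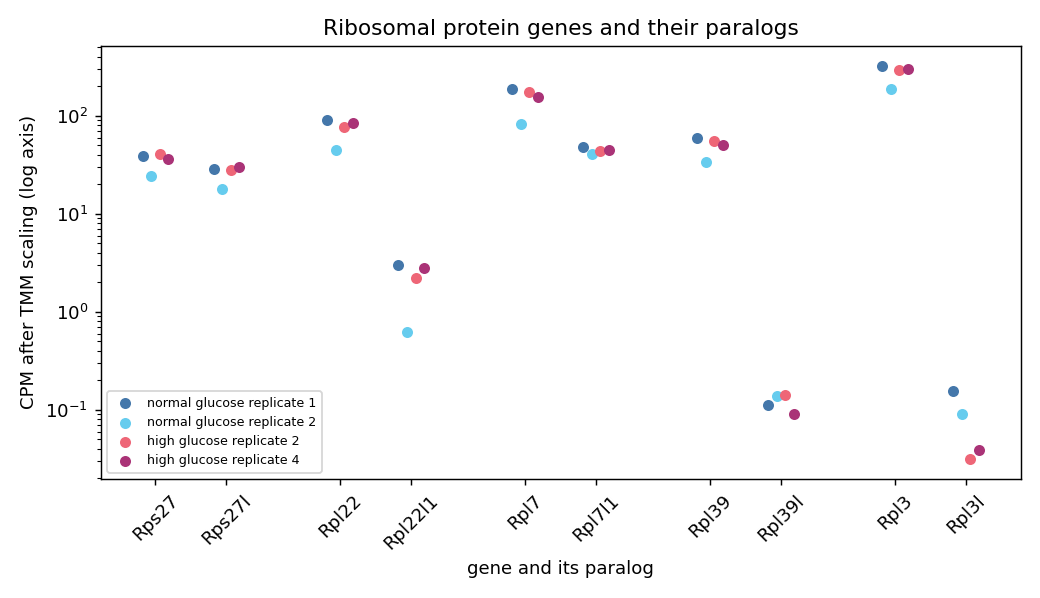
CPM on a log axis of 5 members and their paralogs, with a point for each of the 4 libraries. Rps27l lies close to Rps27, Rpl22l1 lies far below Rpl22 with NG2 lowest at 0.62 CPM, and Rpl39l and Rpl3l lie at the bottom.

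Transcription starts were read from RefSeq's promoters on GRCm38.p6, which held 75 start windows for 63 members. A window has 15 bases before the annotated start and 15 from it on. A pyrimidine run of at least 5 bases covered the start in 20 of 75 member windows (26.7%), against 10.1% of all 32851 windows in the table. The letters CTTTC, which can lie inside such a run, occurred on either strand in 25.3% of member windows and 7.57% of all windows. The windows below set members that were low in NG2 (Rps3, Rps12, Rpl35a and Rps27) beside Rps10, which was highest there, and Rplp2. Rps27 was less low than the others, at 62.6% of the other libraries' median. Rplp2 lay above the other libraries' median in NG2, but HG4 was level with NG2 and HG2 was its low library. For Rpl35a, 1 of 3 annotated starts is shown. They read 5′ to 3′ on the gene's strand, and capitals mark the pyrimidine run over the start.
Rpl35a, chr16:33056467-33056496, plus strand: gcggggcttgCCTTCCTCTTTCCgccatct
Rps27, chr3:90213634-90213663, minus strand: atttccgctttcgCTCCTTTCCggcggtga
Rplp2, chr7:141447636-141447665, plus strand: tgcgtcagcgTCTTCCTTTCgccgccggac
Rps10, chr17:27635230-27635259, minus strand: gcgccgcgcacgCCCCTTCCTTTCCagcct
Rps3, chr7:99483695-99483724, minus strand: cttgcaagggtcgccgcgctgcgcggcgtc
Rps12, chr10:23787195-23787224, minus strand: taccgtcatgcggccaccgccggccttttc

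Runs over the start were found in members that were low in NG2 (Rpl35a and Rps27), in a member that was highest there (Rps10) and in Rplp2. Over tested members, the median log2 distance of that library was -0.51 for the 20 with such a run and -0.68 for the 40 with a window but no run. Their median log2 fold changes between the glucose groups were 0.18 and 0.22. An annotated start can lie some bases from the start used in these cells, and a match is a description of the letters only.

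Among genes that work with the ribosomal proteins, 0 genes of the 6 related lists passed edgeR's quasi-likelihood test. The test called 0.0123% of all 16270 genes, so the absence of calls says little about these lists. The 4 ribosomal proteins whose symbols fall outside the rule (among them Fau, Gnb2l1, which encodes Rack1, and Rpl36al) were all lowest in NG2, with a median log2 distance of -0.46 and a median log2 fold change of 0.15. Fau had 581 and 333 CPM in normal glucose against 503 and 485 CPM in high glucose. The 7 host genes of small nucleolar RNAs, whose spliced transcripts carry TOP motifs, had a median distance of -1.05, and 6 of 7 were lowest in that library. Gas5 had 7.22 and 4.47 CPM against 6.81 and 7.11 CPM, and Snhg5 had 3.03 and 1.12 CPM against 2.83 and 3.30 CPM. Ribosome biogenesis factors had a median distance of -0.30 (26 of 39 lowest there) and mitochondrial ribosomal proteins -0.22 (46 of 77).

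Translation factors and other TOP transcripts stood nearer to all genes, with a median distance of -0.07 and 10 of 22 lowest in NG2. Their median log2 fold change was -0.01, with 11 above 0 and 11 below. Vim, the intermediate filament protein vimentin, had 3482 and 3476 CPM in normal glucose against 2482 and 2234 CPM in high glucose, and the groups did not overlap. Its log2 fold change of -0.56 ± 0.17 had an adjusted p of 0.642 by edgeR's quasi-likelihood test. Tpt1 had 3646 and 4548 CPM against 3283 and 2582 CPM (-0.48 ± 0.20, adjusted p = 0.907 by the same edgeR test). The 20 translation regulators had a median distance of 0.18 and a median log2 fold change of -0.05, with Myc at 63.1 and 89.3 CPM against 52.3 and 53.2 CPM.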

How the data were processed

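The authors deposited raw gene counts, with a table for each of 4 libraries. TopHat, edgeR and mm10 appear in the submitters' processing notes, with no version and no stated role. How reads were counted, with which annotation, strand setting and rule for multiple matches, is not given in the sources used here. Depth was 46571770 to 74971589 counts. Counts were summed by symbol and tested with edgeR 4.0.16 (R 4.3.3): TMM, filterByExpr, quasi-likelihood, group as the only term, two-sided, Benjamini-Hochberg over 16270 genes, threshold 0.05. The filter kept 81 of 84 members, and genes varied between libraries by a common biological coefficient of 20.0%. Standard errors (SE) come from the fit. Alternatives were other scalings, filters and tests (DESeq2 1.42.0, limma 3.58.1), a library left out in turn, duplicate rows kept apart, Rn45s left out and, chosen after seeing the data, the coding transcript as length, the members' lowest library under other scalings, the related lists under the same settings and unadjusted p-values. Sequences were compared with Biopython 1.88 in GENCODE vM21 transcripts, on either strand, since no genome was used here. All 84 members matched the annotation by symbol, and 63 matched RefSeq's promoters once members on chromosome 18 were left out.

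Named by rule were all paralogs, 18 members set by function or partnership, the 5 highest and lowest per kilobase, the 5 largest and smallest fold changes, the 5 smallest p, the 3 widest and narrowest ranges, and up to 3 genes of each related list. Not every gene the rule gave is described, and some are not reported here. Rps12, Fau and the full lists of low and high members were named after their values were seen. The members and lists were chosen with earlier results of these data known.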

Additional observations from a re-analysis of the deposited data

How the results depend on the processing

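No paired analysis was possible because replicate number 2 is the single number found in both groups. Under the 10 alternatives that kept all 4 libraries, 0 members passed the threshold. Without NG1, 43 members were called higher (7.56% of all genes) and 1 lower (8.67%). That fit left NG2 alone in its group, so its counts are not set beside those of other fits. Leaving out 1 library gave a median log2 fold change of -0.10 to 0.53. The share of counts then differed by -0.21 to 0.66 percentage points, and the log2 ratios by -0.083 to 1.17 (Rpl22l1), -0.064 to 0.18 (Rps27l) and -0.88 to 0.091 (Rpl7l1). The log2 fold changes ran from -0.43 to 0.20 (Rpl12), -0.24 to 2.03 (Rpl22l1), -0.56 to 0.15 (Rpl29), -0.15 to 1.63 (Rpl35a) and -0.66 to 0.14 (Rplp2). List medians ran from -0.026 to 0.29 (ribosome biogenesis), -0.12 to 0.45 (proteins outside the rule), -0.038 to 0.86 (small nucleolar RNA hosts), -0.082 to 0.065 (translation factors) and -0.15 to 0.073 (regulators). The translation factor median was 0.0048 with upper-quartile factors, 0.021 with total counts, 0.065 without NG1 and 0.042 without HG4. The median level was 213 CPM per kilobase, 410 over the length of unshared stretches and 262 over the coding transcript. NG2 was lowest for 62 to 70 members under the other scalings and left-out libraries tried. The cause of these changes was not tested. The filter on low counts left Rpl10l, Rpl3l and Rpl39l untested. Low counts also limit Rpl22l1, which had 27 counts in NG2.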
